A study of Mus musculus with 12 samples.

Results

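The PPAR receptors and the metabolic coactivators that work with them were followed through cultured mouse adipocytes with altered ATF7. ATF7 is a DNA-binding factor of the ATF/CREB family. The set held 10 genes of 24341 named in the data: the receptors Pparg, Ppara and Ppard, the partner receptors Rxra and Rxrg, the orphan receptors Esrra and Esrrg, the coactivators Ppargc1a and Ppargc1b, and the corepressor Nrip1. They were taken by symbol from a list chosen with earlier results of these data known, and each stood at 1 locus. RNA of 12 libraries was sequenced, 2 in each of 6 groups. Of these, 4 came from inguinal white fat preadipocytes of C57BL/6 mice: ATF7KO-labelled beige, WT beige, ATF7KO-labelled white and WT white. Beige cultures had received rosiglitazone, a drug that activates the receptor encoded by Pparg, and white cultures had not. The other groups were beige cultures of C3H10t1/2, a mouse mesenchymal cell line, with ATF7 overexpressed or as control, and both had received rosiglitazone. The labels give no knockout allele, no promoter behind the overexpressed ATF7, no number of clones and no word on pooling of animals. Nor do the labels say whether replicates were separate cultures, so p-values reflect only how far these libraries lie apart, which could be technical.

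PPARs are nuclear receptors that bind DNA as heterodimers with an RXR and respond to fatty acids and their derivatives. PPARγ drives fat cell formation, PPARα is known for fatty acid oxidation and marks thermogenic fat, and PPARδ is widely expressed. ERRα and ERRγ are orphan receptors that act on mitochondrial genes. PGC-1α and PGC-1β, from Ppargc1a and Ppargc1b, bind both receptor families and raise their activity, and RIP140, from Nrip1, represses them.

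Levels are the authors' FPKM values, fragment counts scaled by gene length and library size. The depth of each library is unknown, so only spread between libraries is given. Summed FPKM was 225536 to 272371 per library, and 9844 to 10877 entries reached 1 FPKM. Atf7 itself stood at 7.26 and 7.94 FPKM in ATF7KO-labelled beige cultures, against 7.80 and 7.83 FPKM in WT beige cultures. In white cultures it stood at 6.88 and 7.73 FPKM in ATF7KO-labelled libraries and 9.10 and 7.10 FPKM in WT libraries. The ranges overlapped in both pairs. A gene-level value need not reveal a deletion that leaves a transcript, so these groups are called by their label throughout. Atf7 was 4.56-fold higher in ATF7-overexpressing C3H10t1/2 cultures, at 41.2 and 39.1 FPKM, against 8.52 and 9.09 FPKM in control cultures.

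Adipocyte markers fitted the label of every group, with 10 of 10 at 1 FPKM or more in both libraries of each. Their summed level was nevertheless lower in white cultures. It was 11678 and 13134 FPKM in ATF7KO-labelled beige cultures, 12635 and 12051 FPKM in WT beige cultures, 4157 and 4270 FPKM in ATF7KO-labelled white cultures, and 5450 and 6405 FPKM in WT white cultures. Fabp4 was the largest part of that sum, and not every adipocyte marker went this way. By limma, 8 of 10 were higher in ATF7KO-labelled beige than white cultures, and 7 of 10 in WT. Cfd and Retn were lower in beige cultures of both genotypes. Cfd had 54.8 and 53.2 FPKM in WT beige cultures, against 647 and 841 FPKM in WT white cultures. White cultures also carried macrophage markers. The 16 macrophage genes summed to 29.4 to 34.7 FPKM in the 4 primary beige libraries, against 809 and 858 FPKM in ATF7KO-labelled white cultures and 609 and 541 FPKM in WT white cultures. In C3H10t1/2 the sum was 2.94 and 2.78 FPKM in ATF7-overexpressing cultures and 2.65 and 1.93 FPKM in control cultures, with Itgam, C1qa, C1qb and Cd163 listed at 0 in both groups. The 10 preadipocyte markers summed to 137 and 146 FPKM in ATF7KO-labelled beige cultures, against 648 and 709 FPKM in ATF7KO-labelled white cultures, and to 128 and 133 FPKM in WT beige cultures, against 497 and 550 FPKM in WT white cultures. In the C3H10t1/2 libraries that sum was 55.6 to 65.4 FPKM. Endothelial (7 genes, at most 4.62 FPKM in all), Schwann cell (5 genes, at most 8.86 FPKM) and skeletal muscle markers (10 genes, at most 4.44 FPKM) summed to little in any library, and the muscle factors Myog and Myod1 were listed at 0 in every group. In bulk RNA, fewer cells of a type and less RNA per cell cannot be told apart.

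Promoter windows are shown for 3 members because they stand for the patterns that follow: an RXR pair that moved in opposite directions, and Ppargc1a, whose level varied most among the members that reached 1 FPKM. Each window holds the 250 bases before a RefSeq gene start (build GRCm38.p6, 5′ to 3′ on the gene's strand), and 9 of 10 members had at least 1 window in that table. Capitals mark a match on either strand to TGACG, the core bound by CREB-family factors.
Rxra chr2:27676951-27677200 (+): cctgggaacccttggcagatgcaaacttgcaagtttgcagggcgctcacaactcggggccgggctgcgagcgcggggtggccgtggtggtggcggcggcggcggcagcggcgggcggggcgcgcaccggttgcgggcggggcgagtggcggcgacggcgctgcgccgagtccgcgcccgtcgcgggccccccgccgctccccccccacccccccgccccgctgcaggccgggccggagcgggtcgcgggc
Rxrg chr1:167598112-167598361 (+): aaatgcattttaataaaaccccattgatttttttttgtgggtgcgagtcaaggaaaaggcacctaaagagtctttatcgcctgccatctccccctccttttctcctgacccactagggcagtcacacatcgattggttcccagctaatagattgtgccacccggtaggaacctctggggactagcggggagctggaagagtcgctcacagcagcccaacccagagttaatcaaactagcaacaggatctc
Ppargc1a chr5:51567726-51567975 (-): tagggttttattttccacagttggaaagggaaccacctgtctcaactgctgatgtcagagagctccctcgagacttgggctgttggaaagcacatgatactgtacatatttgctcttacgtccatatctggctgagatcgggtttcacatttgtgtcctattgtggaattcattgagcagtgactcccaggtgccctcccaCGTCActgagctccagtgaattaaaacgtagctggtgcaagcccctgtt
The Rxra window had 81.2% G and C, and the Rxrg window 49.2%. TGACG, searched on both strands, occurred at 49 bases before the Ppargc1a start (as CGTCA), and in neither RXR window shown. Of all 32851 windows of the same length, 17.8% held it. The full element TGACGTCA, which contains that core and occurs in 1.55% of windows, was in no member's window. AGGTCA, the core bound by nuclear receptors and present in 14% of windows, lay before 2 of 3 Pparg starts and inside the gene before the second start of Rxra and of Rxrg. It was in none of the windows of Ppara, Ppard, Ppargc1a, Esrra, Esrrg or Nrip1. Neither AGGTCANAGGTCA, the PPAR:RXR repeat made of 2 such cores (0.0335% of windows), nor TNAAGGTCA, the ERR element that also contains the core (1.14%), was found. The Ppargc1a start shown lies 13804 bases upstream of the locus that was measured (chr5:51454249-51553921, mm10), so the window belongs to an alternative start.

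The members differed widely in how far their levels moved over the 12 libraries. Ppargc1a had the widest range among those that reached 1 FPKM, 57.3-fold between its highest and lowest library, followed by Ppara at 45.0-fold and Rxrg at 18.7-fold. Ppargc1b ranged over 8.87-fold, Esrra over 4.45-fold and Rxra over 3.35-fold. Nrip1 (1.99-fold), Ppard (1.53-fold) and Pparg (1.49-fold) were the steadiest. Esrrg never exceeded 0.300 FPKM and was listed at 0 in 1 library of each white group.

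**Figure D1:**
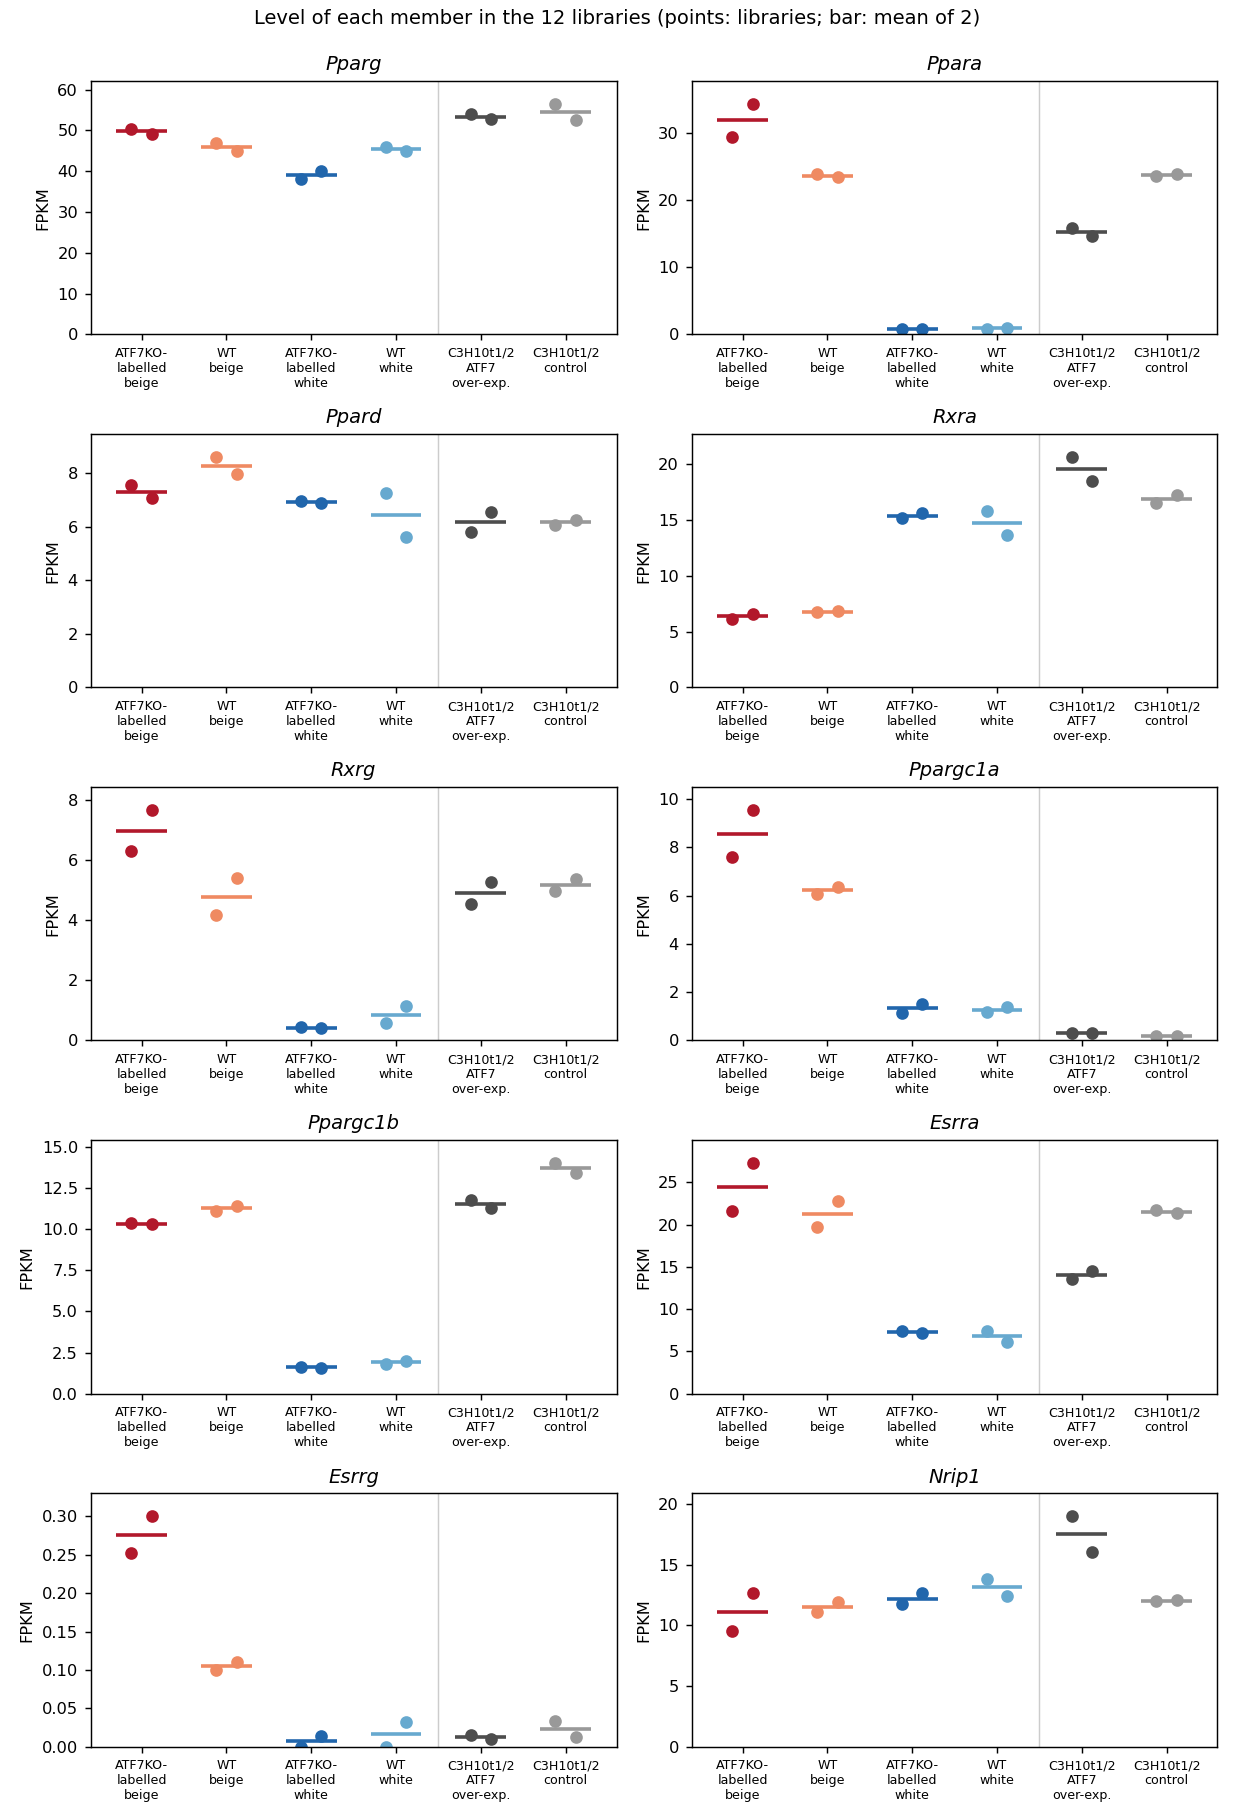
FPKM (vertical axes, linear from 0) of each of the 10 genes in the 6 groups (horizontal axis). Points are the 12 libraries and bars are means of 2. Pparg stays between 38 and 56.5 FPKM in all libraries, Ppara is below 1 FPKM in the 4 white libraries, and Ppargc1a is below 0.31 FPKM in the 4 C3H10t1/2 libraries.

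The first comparison set rosiglitazone-treated beige cultures against untreated white cultures of the same genotype. Ppara, Rxrg, Ppargc1a, Ppargc1b and Esrra were higher in beige cultures of both genotypes, and Rxra was lower. Pparg and Ppard passed the test in 1 genotype each, and Nrip1 in neither. Of 9 members tested, 6 were higher and 1 lower in each genotype. Ppara and Rxrg met the filter (1 FPKM in 2 libraries) through their beige libraries alone, so they could only be tested as genes that differ, and their calls are given as a description. Over all entries tested, 61.0% were called in the ATF7KO-labelled comparison (26.6% higher, 34.3% lower) and 53.7% in the WT comparison (21.6% higher, 32.1% lower), by limma with Benjamini-Hochberg adjusted p under 0.05. Esrrg was not tested, since no library reached 1 FPKM.

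Pparg, the adipogenic receptor, was abundant in white and beige cultures alike. It had 50.5 and 49.1 FPKM in ATF7KO-labelled beige cultures, against 38.002 and 40.1 FPKM in ATF7KO-labelled white cultures. In WT it had 47.0 and 45.1 FPKM in beige cultures, against 45.8 and 45.0 FPKM in white cultures. The ATF7KO-labelled groups were apart and the WT groups overlapped. The log2 difference of FPKM + 1 was 0.34 (SE 0.09, limma adjusted p = 0.0094) in ATF7KO-labelled cultures and 0.02 (95% interval -0.19 to 0.22, adjusted p = 0.88) in WT cultures. The ATF7KO-labelled call was lost without ATF7KO white replicate 1 (0.30, adjusted p = 0.0776), after quantile normalization (0.04, adjusted p = 0.692) and with small RNA genes left out of the total (0.14, adjusted p = 0.187).

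Ppara, the receptor of fatty acid oxidation, showed the largest difference of the set. Its level was 29.4 and 34.3 FPKM in ATF7KO-labelled beige cultures, against 0.763 and 0.795 FPKM in ATF7KO-labelled white cultures. In WT it was 23.9 and 23.4 FPKM in beige cultures, against 0.850 and 0.972 FPKM in white cultures. Group means were 40.9-fold higher in ATF7KO-labelled and 25.9-fold higher in WT beige cultures, far outside the spread of replicates. On the log2(FPKM + 1) scale, which understates low levels, the differences were 4.20 (SE 0.10, limma adjusted p = 5.47e-08) and 3.69 (SE 0.10, adjusted p = 1.71e-07).

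Ppard, the widely expressed PPAR, moved little. It had 7.54 and 7.05 FPKM in ATF7KO-labelled beige cultures, against 6.97 and 6.88 FPKM in ATF7KO-labelled white cultures. In WT it had 8.59 and 7.96 FPKM in beige cultures, against 7.26 and 5.62 FPKM in white cultures. No replicate ranges overlapped, but the gaps were small. The log2 difference was 0.07 (95% interval -0.20 to 0.33, limma adjusted p = 0.651) in ATF7KO-labelled cultures and 0.33 (SE 0.12, adjusted p = 0.0439) in WT cultures. The WT call was lost without WT beige replicate 1 (0.28, adjusted p = 0.191), WT beige replicate 2 (0.37, adjusted p = 0.0889) or WT white replicate 2 (0.17, adjusted p = 0.254), with no filter (adjusted p = 0.0686) and with small RNA genes left out (0.21, adjusted p = 0.267).

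The RXR partners moved in opposite directions. Rxra, the common heterodimer partner, was at 6.16 and 6.56 FPKM in ATF7KO-labelled beige cultures, against 15.2 and 15.6 FPKM in ATF7KO-labelled white cultures. In WT it was at 6.76 and 6.83 FPKM in beige cultures, against 15.8 and 13.7 FPKM in white cultures. Every beige library was below every white one, and Rxra fell by 1.15 on the log2 scale in ATF7KO-labelled (SE 0.10, limma adjusted p = 1.33e-05) and by 1.01 in WT beige cultures (SE 0.10, adjusted p = 4.09e-05). Rxrg, whose expression is more tissue-restricted, was at 6.31 and 7.66 FPKM in ATF7KO-labelled beige cultures, against 0.439 and 0.410 FPKM in ATF7KO-labelled white cultures. In WT it was at 4.16 and 5.40 FPKM in beige cultures, against 0.582 and 1.14 FPKM in white cultures. It rose by 2.48 (SE 0.17, limma adjusted p = 3.59e-06) and 1.65 (SE 0.17, adjusted p = 5.51e-05) on the log2 scale in the ATF7KO-labelled and the WT comparison, values that describe a gene that met the filter only where it is high. Summed over these 2 genes, the level was 12.5 and 14.2 FPKM in ATF7KO-labelled beige cultures, against 15.6 and 16.0 FPKM in ATF7KO-labelled white cultures. It was 10.9 and 12.2 FPKM in WT beige cultures, against 16.4 and 14.8 FPKM in WT white cultures. That sum is not the whole RXR level, since it leaves out Rxrb, which was higher in the beige libraries. Rxrb had 8.63 and 8.75 FPKM in ATF7KO-labelled beige cultures, against 5.43 and 5.75 FPKM in ATF7KO-labelled white cultures. In WT it had 9.51 and 8.29 FPKM in beige cultures, against 4.51 and 4.12 FPKM in white cultures.

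Among the estrogen-related receptors, Esrra, which acts with PGC-1 on mitochondrial genes, was higher in beige cultures. Its level was 21.6 and 27.2 FPKM in ATF7KO-labelled beige cultures, against 7.40 and 7.14 FPKM in ATF7KO-labelled white cultures. In WT it was 19.7 and 22.7 FPKM in beige cultures, against 7.40 and 6.12 FPKM in white cultures. Replicates were far from overlapping, and the log2 differences were 1.61 (SE 0.14, limma adjusted p = 1.32e-05) and 1.52 (SE 0.14, adjusted p = 2.64e-05). Esrrg, the related receptor of oxidative tissues, was near the bottom of the scale. It had 0.252 and 0.300 FPKM in ATF7KO-labelled beige cultures, against a listed 0 and 0.0144 FPKM in ATF7KO-labelled white cultures. WT beige cultures had 0.0999 and 0.111 FPKM, against a listed 0 and 0.0324 FPKM in WT white cultures. All 4 beige libraries were above the 4 white ones. With no filter, the log2 difference was 0.34 in ATF7KO-labelled (limma adjusted p = 0.000264) and 0.12 in WT cultures (adjusted p = 0.026).

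Both PGC-1 coactivators were higher in beige cultures. Ppargc1a, the cold- and cAMP-inducible one, had 7.60 and 9.54 FPKM in ATF7KO-labelled beige cultures, against 1.15 and 1.51 FPKM in ATF7KO-labelled white cultures. In WT it had 6.07 and 6.37 FPKM in beige cultures, against 1.17 and 1.38 FPKM in white cultures. The groups were clearly apart, with log2 differences of 2.04 (SE 0.13, limma adjusted p = 2.54e-06) and 1.67 (SE 0.13, adjusted p = 1.2e-05). Ppargc1b, its close relative, had 10.4 and 10.3 FPKM in ATF7KO-labelled beige cultures, against 1.60 and 1.58 FPKM in ATF7KO-labelled white cultures. In WT it had 11.1 and 11.4 FPKM in beige cultures, against 1.82 and 1.99 FPKM in white cultures. The log2 differences were 2.13 (SE 0.09, limma adjusted p = 3.62e-07) and 2.08 (SE 0.09, adjusted p = 7.75e-07). Replicates of Ppargc1b lay close together in every group.

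Nrip1, the corepressor, did not pass the test in either genotype. It had 9.54 and 12.7 FPKM in ATF7KO-labelled beige cultures, against 11.7 and 12.7 FPKM in ATF7KO-labelled white cultures. WT beige cultures had 11.1 and 11.9 FPKM, against 13.9 and 12.4 FPKM in WT white cultures. The log2 differences were -0.13 (95% interval -0.44 to 0.17, limma adjusted p = 0.411) and -0.17 (95% interval -0.48 to 0.13, adjusted p = 0.299). In ATF7KO-labelled cultures it was called lower without ATF7KO beige replicate 2 (-0.32, adjusted p = 0.0444) and with small RNA genes left out (-0.35, adjusted p = 0.0434).

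**Figure D2:**
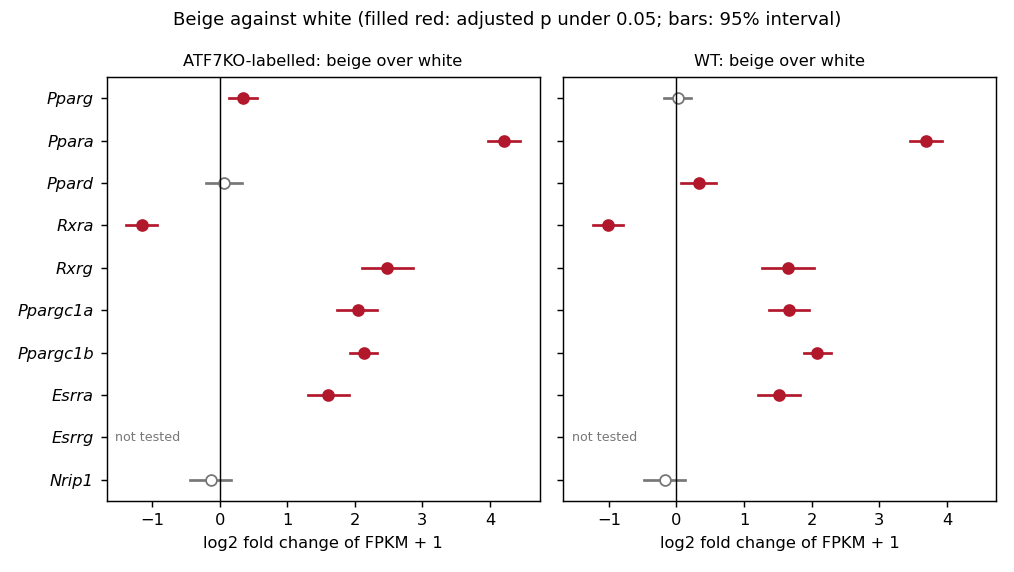
Log2 difference of FPKM + 1 (horizontal axis) between beige and white cultures for each gene, in ATF7KO-labelled cultures on the left and WT cultures on the right. Points are limma estimates, bars 95% intervals and filled red points have adjusted p under 0.05. Ppara lies farthest to the right at 4.20 and 3.69, and Rxra is the only gene called lower, at -1.15 and -1.01.

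These differences moved with the make-up of the cultures. Between beige and white cultures, 15 of 15 tested macrophage markers and 8 of 8 tested preadipocyte markers were lower and 7 of 7 tested beige adipocyte markers higher, in both genotypes. Of these, 6 macrophage and 2 preadipocyte markers met the filter through white libraries alone and 5 beige adipocyte markers through beige libraries alone. Their part in the members' values was not tested. The median log2 difference over all entries was -0.06 in ATF7KO-labelled and -0.10 in WT cultures. Without small RNA genes it was -0.33 and -0.29, and after quantile normalization 0.06 and 0.02. Of all calls, those higher made up 43.7% in ATF7KO-labelled cultures (52.8% after quantile normalization, 28.4% without small RNA genes) and 40.2% in WT cultures (50.9% and 27.6%). The calls of Ppara, Rxra, Rxrg, Ppargc1a, Ppargc1b and Esrra held under each of the 10 alternatives run in both genotypes.

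Genes known as targets of these receptors were mostly higher in beige cultures, beside the background shares above. Of 41 PPAR targets tested, 35 were higher and 2 lower in ATF7KO-labelled beige cultures (median log2 difference 2.21, against -0.06 over all entries), and 36 were higher and 2 lower in WT beige cultures (median 1.70, against -0.10). Of the 41, 9 met the filter through the beige libraries alone, Elovl3 and Cpt1b among them, and so could only be tested as higher. Elovl3, a fatty acid elongase of thermogenic fat, had 75.3 and 92.9 FPKM in ATF7KO-labelled beige cultures, against 0.137 and 0.179 FPKM in ATF7KO-labelled white cultures. Cpt1b, the muscle-type mitochondrial carnitine palmitoyltransferase, had 73.8 and 74.4 FPKM in WT beige cultures, against 0.674 and 0.790 FPKM in WT white cultures. The isoform Cpt1a and malic enzyme Me1 were the 2 targets that fell, by 0.89 and 0.97 on the log2 scale in ATF7KO-labelled cultures and by 1.11 and 0.65 in WT cultures. Of 34 ERR and PGC-1 targets tested, 34 were higher in ATF7KO-labelled and 32 in WT beige cultures, with none lower by limma. Chchd10, a mitochondrial intermembrane space protein, had 604 and 638 FPKM in ATF7KO-labelled beige cultures, against 14.9 and 16.0 FPKM in ATF7KO-labelled white cultures. None of these lists holds a member, but some genes, such as Elovl3, Cpt1b and Cox8b, are also beige adipocyte markers. The lists too were chosen with earlier results of these data known, so their counts are a description.

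The other receptors and cofactors had calls in both directions, to be read beside the shares over all entries (26.6% higher and 34.3% lower in ATF7KO-labelled, 21.6% and 32.1% in WT cultures). The counts of coactivators higher in both genotypes and lower in WT cultures were near those shares and are no result about the list. The same holds for upstream regulators in ATF7KO-labelled cultures and for those lower in WT cultures. Of 19 related nuclear receptors tested, 10 were higher and 4 lower in ATF7KO-labelled beige cultures (6 higher and 7 lower with small RNA genes left out), and 7 were higher and 4 lower in WT beige cultures (5 higher and 6 lower with small RNA genes left out). Rxrb, the remaining RXR, rose by 0.90 on the log2 scale in WT beige cultures (SE 0.10, limma adjusted p = 8.87e-05), at 9.51 and 8.29 FPKM, against 4.51 and 4.12 FPKM in WT white cultures. The thyroid hormone receptor Thra fell by 1.69 in ATF7KO-labelled and by 1.13 in WT cultures. Of 19 other coactivators, 4 were higher and 9 lower in ATF7KO-labelled beige cultures (3 to 5 lower without one of 3 libraries, ATF7KO beige replicate 1 or either ATF7KO white replicate, and 5 after quantile normalization), and 4 higher and 6 lower in WT beige cultures (2 to 3 lower without either WT beige replicate or WT white replicate 1, and 3 after quantile normalization). Lpin1, a phosphatidate phosphatase that also coactivates PPARα, had 71.9 and 67.4 FPKM in WT beige cultures, against 26.9 and 29.7 FPKM in WT white cultures. Of 16 corepressors and deacetylases, 3 were higher and 4 lower in ATF7KO-labelled beige cultures (2 lower without ATF7KO beige replicate 1, 8 lower with small RNA genes left out, 5 higher in the fit of all 12 libraries), and 2 higher and 3 lower in WT beige cultures (5 lower with small RNA genes left out). The nuclear receptor corepressor Ncor1 rose by 0.33 and 0.43 on the log2 scale in the ATF7KO-labelled and the WT comparison. The Ncor1 call in ATF7KO-labelled cultures was lost without ATF7KO beige replicate 2 or ATF7KO white replicate 1, with quantile normalization and with small RNA genes left out. Of 25 tested kinases and CREB-family regulators known to act on Ppargc1a, 7 were higher and 7 lower in ATF7KO-labelled beige cultures and 8 higher and 7 lower in WT beige cultures. With small RNA genes left out these were 4 higher and 10 lower in ATF7KO-labelled and 6 higher and 10 lower in WT beige cultures. Prkar2b, a regulatory subunit of protein kinase A, was higher in both, by 2.11 and 1.33 on the log2 scale.

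The second comparison asked whether the ATF7KO label changed the set. In beige cultures none of the 9 members tested passed, where 0.151% of entries did (0.0531% higher, 0.0974% lower, 17 in all, and 1160 at an unadjusted p under 0.05). The values given above place ATF7KO-labelled beige libraries above both WT beige libraries for Pparg, Ppara, Rxrg and Ppargc1a and below both for Ppard, Rxra and Ppargc1b. Esrra and Nrip1 overlapped. The share of all entries that lay apart in this way was not counted, so this separation is no result about the set. Ppara had the lowest p, with group means of 31.9 ± 3.4 FPKM in ATF7KO-labelled and 23.6 ± 0.39 FPKM in WT beige cultures (SD, n = 2 each) and a log2 difference of 0.41 (95% interval 0.18 to 0.64, limma adjusted p = 0.255). Rxrg differed by 0.47 (95% interval 0.09 to 0.85, limma adjusted p = 0.413) and Ppargc1a by 0.40 (95% interval 0.10 to 0.69, adjusted p = 0.366). Those 3 were the members with an unadjusted p under 0.05. For Pparg the difference was 0.11 (95% interval -0.09 to 0.31), for Ppargc1b -0.11 (-0.31 to 0.09) and for Esrra 0.19 (-0.12 to 0.50). Esrrg was 2.62-fold higher by group means, both at a very low level.

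In white cultures again none of the 9 members passed, where 1.89% of entries did (1.27% higher, 0.620% lower, 213 in all, with 2246 at an unadjusted p under 0.05). Pparg was lower in both ATF7KO-labelled white libraries than in either WT white library, with a log2 difference of -0.21 (95% interval -0.42 to -0.01, limma adjusted p = 0.231). Rxrg was also lower in both, with a difference of -0.37 (95% interval -0.75 to 0.01, limma adjusted p = 0.267). Ppara (-0.10, 95% interval -0.33 to 0.13) and Ppargc1b (-0.16, -0.36 to 0.04) were likewise lower in both. Ppargc1a overlapped, with a difference of 0.03 (-0.27 to 0.32). The share of all entries that lay apart in this way was not counted, so this separation is no result about the set. Macrophage markers moved with the label here: 6 of 15 tested were higher and none lower by limma, 15 of 15 had a value above 0, and their summed levels were given above. Their part in the members' values was not tested. Within the calls over all entries 67.1% were higher, a share of 53.7% with a pseudocount of 0.1, 50.4% after quantile normalization and 47.2% without small RNA genes.

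The difference between the genotype effects in beige and in white cultures was tested directly. None of the 9 members passed, where 0.292% of entries did (0.106% higher, 0.186% lower, 33 in all, with 1900 at an unadjusted p under 0.05). Rxrg had the largest difference, 0.84 (95% interval 0.30 to 1.38, limma adjusted p = 0.181). Ppara followed with 0.51 (95% interval 0.19 to 0.84, limma adjusted p = 0.179), Ppargc1a with 0.37 (95% interval -0.04 to 0.79, adjusted p = 0.339) and Pparg with 0.32 (95% interval 0.04 to 0.61, adjusted p = 0.254). For Rxrg, Ppara and Pparg the ATF7KO-labelled value was the higher one in beige and the lower one in white cultures. For Ppargc1b the difference was 0.05 (95% interval -0.23 to 0.33) and for Nrip1 0.04 (-0.39 to 0.47).

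Few genes around the members passed in the genotype comparisons. In beige cultures 1 of 41 PPAR targets was called: Cyp4b1, a cytochrome P450, had 37.8 and 76.7 FPKM in ATF7KO-labelled cultures, against 10.7 and 14.2 FPKM in WT cultures (log2 difference 2.04, SE 0.28, limma adjusted p = 0.0358). That call was lost without WT beige replicate 1 (adjusted p = 0.403) or replicate 2 (adjusted p = 0.0905), with a pseudocount of 0.1, with no filter and with quantile normalization, and 3 PPAR targets were called without ATF7KO beige replicate 2. Of the 34 ERR and PGC-1 targets, 31 had a log2 difference above 0 (median 0.16, against 0.04 over all entries) and none passed by limma. Beige adipocyte markers lay on the same side: 7 of 7 tested had a difference above 0 (median 0.73, none called), and the 8 listed summed to 1115 and 1176 FPKM in ATF7KO-labelled beige cultures, against 909 and 866 FPKM in WT beige cultures. In white cultures 5 of 41 PPAR targets were lower (median -0.16, against 0.03). Cd36, the fatty acid transporter, had 114 and 112 FPKM in ATF7KO-labelled white cultures, against 177 and 185 FPKM in WT white cultures, and Cidec, a lipid droplet protein, had 88.2 and 81.0 FPKM, against 146 and 135 FPKM. All 5 calls were lost without WT white replicate 2 or either ATF7KO white replicate, and with no filter, while 2 targets were called lower with a pseudocount of 0.1 and 10 after quantile normalization. General adipocyte markers lay on the same side: 0 of 10 had a difference above 0 (median -0.48), and the 2 called lower were Cidec and Cd36, which are on both lists. Preadipocyte markers lay above 0 in 7 of 8 tested (median 0.30, 1 called higher). The part of these markers in the targets' and members' values was not tested. The retinoic acid receptor Rarg was the only related nuclear receptor called, at 6.87 and 7.37 FPKM in ATF7KO-labelled white cultures, against 4.77 and 4.29 FPKM in WT white cultures (limma adjusted p = 0.0306), and that call too was lost whichever of those 3 libraries was left out, with a pseudocount of 0.1, with no filter and with small RNA genes left out.

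The third comparison set ATF7-overexpressing against control C3H10t1/2 beige cultures. Ppara and Esrra were lower with ATF7 overexpressed, and no member was called higher. Of 8 members tested, 2 were called lower and 0 higher by limma, where 1.49% of entries were called (0.431% higher, 1.06% lower) and 1715 of 9981 had an unadjusted p under 0.05. Of all calls, those higher made up 28.9% (18.2% with no filter and 40.6% without small RNA genes).

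Ppara was at 15.9 and 14.7 FPKM in ATF7-overexpressing cultures, against 23.7 and 23.9 FPKM in control cultures. Esrra was at 13.5 and 14.5 FPKM in ATF7-overexpressing cultures, against 21.8 and 21.3 FPKM in control cultures. For both genes the replicates of a group lay close together and the groups were well apart. Ppara fell by 0.61 (SE 0.07, limma adjusted p = 0.0176) and Esrra by 0.59 (SE 0.07, adjusted p = 0.0179) on the log2 scale. Both calls were lost without ATF7-overexpressing replicate 1 (adjusted p = 0.0806 and 0.106), without replicate 2 (0.0827 and 0.0678) and with no filter (0.0748 for both), and that of Esrra also without control replicate 1 (0.0517) and in the fit of all 12 libraries (0.0579). The size of the differences stayed between -0.66 and -0.55 for Ppara and between -0.64 and -0.54 for Esrra when 1 library was left out.

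Nrip1 was the member with the largest positive difference. It had 19.0 and 16.1 FPKM in ATF7-overexpressing cultures, against 11.99 and 12.06 FPKM in control cultures, with no overlap. The log2 difference of 0.50 (95% interval 0.28 to 0.72, limma adjusted p = 0.0654) did not pass, except without small RNA genes (0.57, adjusted p = 0.0355). Ppargc1b had 11.8 and 11.3 FPKM in ATF7-overexpressing cultures, against 14.02 and 13.43 FPKM in control cultures. Both libraries were below both controls, but the difference of -0.23 (95% interval -0.40 to -0.07, limma adjusted p = 0.164) did not pass.

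Pparg did not separate the groups, at 54.0 and 52.8 FPKM in ATF7-overexpressing cultures, against 56.5 and 52.5 FPKM in control cultures (difference -0.03, 95% interval -0.19 to 0.14). Ppard also overlapped, at 5.79 and 6.54 FPKM in ATF7-overexpressing cultures, against 6.08 and 6.26 FPKM in control cultures (difference 0.00, 95% interval -0.20 to 0.20). Rxra had 20.6 and 18.5 FPKM in ATF7-overexpressing cultures, against 16.5 and 17.2 FPKM in control cultures (difference 0.20, 95% interval 0.01 to 0.39, limma adjusted p = 0.263). Only for Rxra of these were the groups apart. Rxrg had 4.53 and 5.29 FPKM in ATF7-overexpressing cultures, against 4.97 and 5.37 FPKM in control cultures (difference -0.06, 95% interval -0.29 to 0.16). Ppargc1a lay near the bottom of the scale in the line, at 0.303 and 0.297 FPKM in ATF7-overexpressing cultures, against 0.167 and 0.204 FPKM in control cultures, and did not meet the filter. With no filter its difference was 0.13 (limma adjusted p = 0.311). Esrrg was listed at 0.0154 and 0.00977 FPKM in ATF7-overexpressing cultures, against 0.0340 and 0.0120 FPKM in control cultures.

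**Figure D3:**
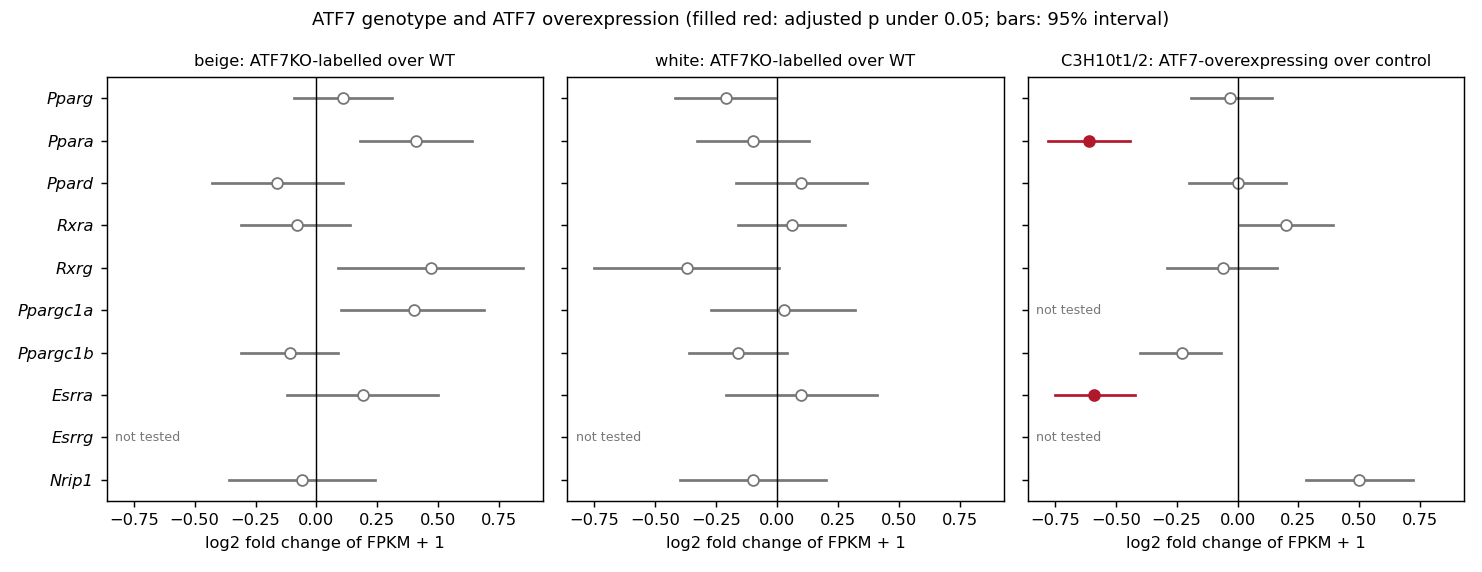
Log2 difference of FPKM + 1 (horizontal axis) for each gene between ATF7KO-labelled and WT beige cultures, between ATF7KO-labelled and WT white cultures, and between ATF7-overexpressing and control C3H10t1/2 cultures. Points are limma estimates, bars 95% intervals and filled red points have adjusted p under 0.05. Only Ppara (-0.61) and Esrra (-0.59) in C3H10t1/2 are filled.

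Targets of the same receptors were also lower in the line. Of 41 PPAR targets tested, 9 were lower and none higher by limma (median log2 difference -0.16, against -0.02 over all entries). Of the 41, Fgf21 and Ucp1 met the filter through the control libraries alone. Without either ATF7-overexpressing library 5 were lower, and with no filter 4. Cidea, a lipid droplet protein of thermogenic fat, had 24.8 and 26.0 FPKM in ATF7-overexpressing cultures, against 96.4 and 84.7 FPKM in control cultures. Cpt1b had 28.0 and 28.4 FPKM in ATF7-overexpressing cultures, against 90.9 and 76.7 FPKM in control cultures. Fabp3, a fatty acid binding protein, had 31.8 and 31.7 FPKM in ATF7-overexpressing cultures, against 99.9 and 113 FPKM in control cultures. These 3 were the PPAR targets with the lowest p, at adjusted p = 0.000472 for Cidea, 0.00193 for Cpt1b and 0.000472 for Fabp3.

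Of 35 ERR and PGC-1 targets tested in the line, 3 had a log2 difference above 0 and 2 were called lower: Sod2, mitochondrial superoxide dismutase, and Perm1, a muscle regulator that acts with PGC-1 and ERR. Perm1 met the filter through the control libraries alone, so Sod2 was the 1 call among targets that could have moved either way. Perm1 had 0.564 and 0.562 FPKM in ATF7-overexpressing cultures, against 1.56 and 1.73 FPKM in control cultures (difference -0.76, limma adjusted p = 0.0314). Neither Perm1 nor Sod2 was called under the replicate block, with no filter, or without either ATF7-overexpressing replicate. Sod2 also lost its call after quantile normalization (limma adjusted p = 0.0701), in the fit of all 12 libraries (0.0883) and without either control replicate. Prkab2, a subunit of AMP-activated kinase, was the only upstream regulator called (limma adjusted p = 0.0449). It had 6.85 and 7.01 FPKM in ATF7-overexpressing cultures, against 4.83 and 4.72 FPKM in control cultures. That call too was lost whichever of the 4 libraries was left out. It was also lost with no filter, under the replicate block and in the fit of all 12 libraries. Of 18 related nuclear receptors and 16 corepressors none was called by limma. Beige adipocyte markers moved with these values: 5 of 7 tested were lower, their sum was 756 and 627 FPKM in ATF7-overexpressing cultures, against 1171 and 1076 FPKM in control cultures, and Ucp1, the thermogenic uncoupling protein, had 1.08 and 0.820 FPKM, against 8.71 and 6.82 FPKM. The 10 general adipocyte markers summed to 14363 and 13167 FPKM in ATF7-overexpressing cultures, against 13305 and 13542 FPKM in control cultures. Fabp4 was the largest part of that sum. Of the 10, 7 had a log2 difference above 0 (median 0.09) and 1 was called higher. That was Cfd, at 355 and 325 FPKM, against 230 and 203 FPKM in control cultures (limma adjusted p = 0.0304). The part of the beige and general adipocyte markers in these values was not tested.

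The beige cultures of the 2 cell sources were then compared, WT primary beige against control C3H10t1/2 beige. Cell source, genetic background and experiment cannot be told apart here. Of 9 members tested, 2 were higher and 3 lower in primary cultures, where 56.4% of entries were called (25.3% higher, 31.1% lower). Both counts were near those shares and are no result about the set. Ppargc1a stood out, with group means of 6.22 ± 0.21 FPKM in WT primary and 0.185 ± 0.026 FPKM in C3H10t1/2 beige cultures (SD, n = 2 each), a 33.6-fold higher level (log2 difference 2.61, SE 0.12, limma adjusted p = 4.56e-08). It met the filter through the primary libraries alone, so it could only be tested as a gene that differs. Rxra was lower, by 1.20 on the log2 scale (adjusted p = 1.47e-06): the C3H10t1/2 level of 16.5 and 17.2 FPKM lay near that of the primary white cultures. Pparg (-0.24, adjusted p = 0.0168), Ppargc1b (-0.26, adjusted p = 0.0101) and Ppard (0.37, adjusted p = 0.0136) passed with small differences. Those 3 calls depended on single libraries: 3 members were called without WT beige replicate 1 (Ppard 0.0835, Ppargc1b 0.0595) and 2 without control replicate 1 (Pparg 0.139, Ppard 0.0673, Ppargc1b 0.0754), and Pparg was also lost without WT beige replicate 2 (0.103) and after quantile normalization (0.105). Ppara (-0.01, 95% interval -0.20 to 0.19), Esrra (-0.02, -0.29 to 0.25), Rxrg (-0.10, -0.45 to 0.25) and Nrip1 (-0.06, -0.34 to 0.22) did not pass.

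Downstream genes had calls in both directions between the sources, to be read beside 25.3% higher and 31.1% lower over all entries. The numbers of ERR and PGC-1 targets and of PPAR targets higher were near that share and are no result about the lists. Of 35 ERR and PGC-1 targets, 9 were higher and 14 lower in WT primary beige cultures, and without 1 library the number lower was 7 to 9. Chchd10 had 568 and 573 FPKM in WT primary beige cultures, against 5.99 and 5.57 FPKM in C3H10t1/2 control cultures. Cox8b, a cytochrome c oxidase subunit, had 156 and 183 FPKM in WT primary beige cultures, against 821 and 792 FPKM in C3H10t1/2 control cultures. These were the genes with the lowest p in each direction. Of 41 PPAR targets 11 were higher and 21 lower, with Plin5, a lipid droplet protein of oxidative tissue, at 20.5 and 21.9 FPKM, against 3.79 and 4.0 FPKM. The number higher was 7 without WT beige replicate 2 or control replicate 2.

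Ratios within a library, which do not depend on its scaling, set related members against each other per length of gene. Ppara stood at 0.583 and 0.699 of the Pparg level in ATF7KO-labelled beige cultures and at 0.509 and 0.519 in WT beige cultures. The ratio was 0.0201 and 0.0198 in ATF7KO-labelled white cultures and 0.0185 and 0.0216 in WT white cultures. In C3H10t1/2 it was 0.294 and 0.277 in ATF7-overexpressing cultures, against 0.419 and 0.455 in control cultures. Each pair of groups was apart except in white cultures.

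Rxrg reached or passed the Rxra level in 1 group only, the ATF7KO-labelled beige cultures, with ratios of 1.02 and 1.17, against 0.616 and 0.791 in WT beige cultures. It was 0.0289 and 0.0263 of the Rxra level in ATF7KO-labelled white cultures and 0.0368 and 0.0829 in WT white cultures. In C3H10t1/2 the ratio was 0.220 and 0.286 in ATF7-overexpressing cultures, against 0.301 and 0.312 in control cultures. The Ppargc1a level relative to Ppargc1b separated the cell sources instead. It was between 0.546 and 0.955 in the 8 primary libraries, white and beige, and between 0.0119 and 0.0263 in the 4 C3H10t1/2 libraries. The summed level of the 2 coactivators was nevertheless 17.2 and 17.8 FPKM in WT primary beige cultures, against 14.2 and 13.6 FPKM in C3H10t1/2 control cultures. Nrip1 stood at 7.31 and 8.0 times the Ppargc1b level in ATF7KO-labelled white cultures and at 7.63 and 6.25 times in WT white cultures, and between 0.855 and 1.61 times in the 8 beige libraries.

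**Figure D4:**
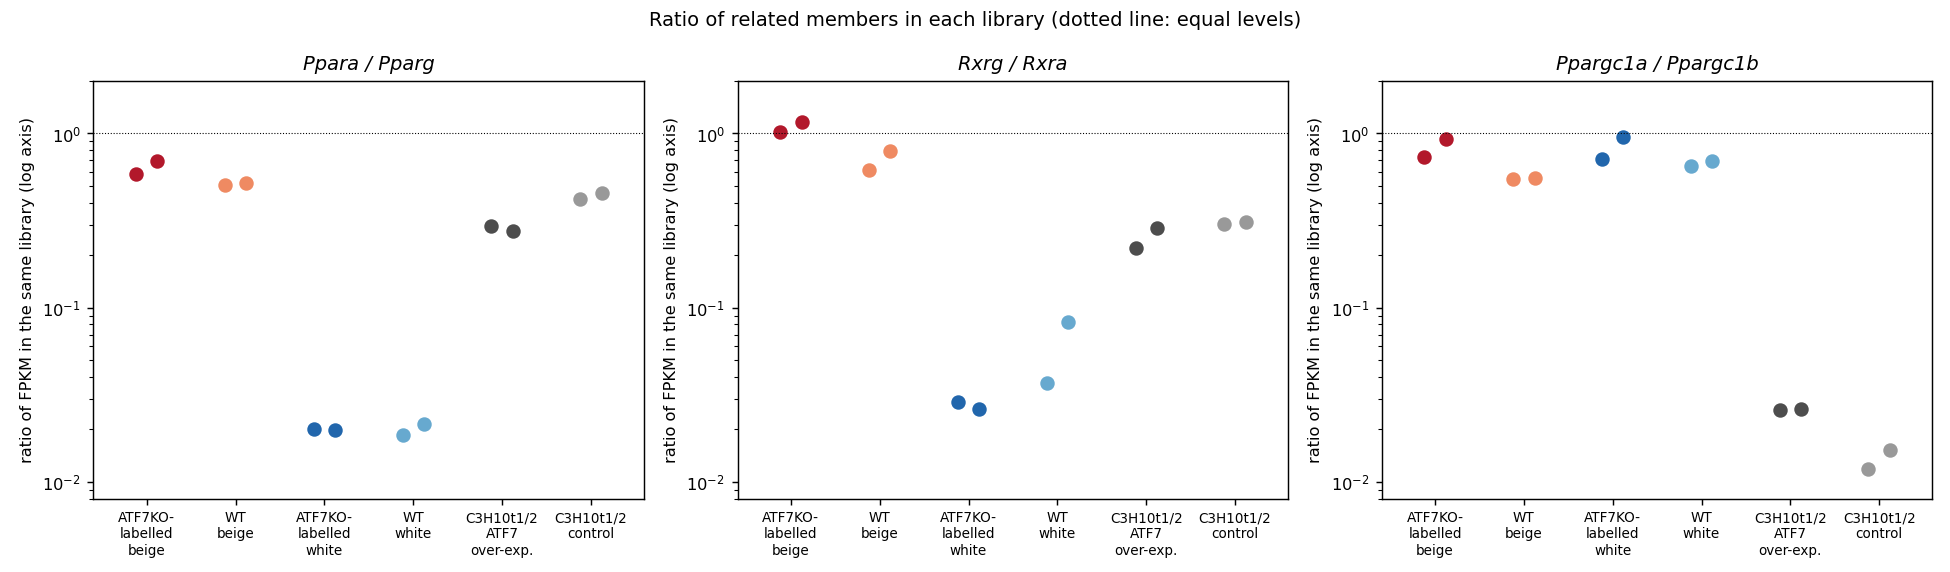
Ratio of FPKM within each library (vertical axes, log scale; dotted line at equal levels) for Ppara over Pparg, Rxrg over Rxra, and Ppargc1a over Ppargc1b in the 6 groups. Points are libraries. Rxrg over Rxra is above 1 only in the ATF7KO-labelled beige libraries (1.02 and 1.17), and Ppargc1a over Ppargc1b is lowest in C3H10t1/2.

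The genes most like each member were found among 10988 entries by the root mean square difference between 6 centred group means of log2(FPKM + 1). Ppara was nearest to Acer2 (0.177), Pdk4 (0.281) and Acaa2 (0.298), where the SD of its own profile was 1.77. Ppargc1b was nearest to Akap1 (0.0672), Acot13 (0.0966) and Ech1 (0.135), and Ppargc1a to Cox4i2 (0.134), Pfkp (0.152) and Gadd45a (0.152). Their own SDs were 1.05 and 1.15. Rxrg was nearest to Dnajc15 (0.0941), Ghitm (0.104) and Mcur1 (0.124), Esrra to Fam57b (0.0869) and Rxra to Rftn2 (0.0784). Between members, Pparg lay closest to Nrip1 at 0.214 and to Ppard at 0.245, all 3 with flat profiles. Rxrg and Ppargc1b followed at 0.261, with Rxrg 49th among the genes most like Ppargc1b. The 2 PGC-1 coactivators were far apart at 1.46, with Ppargc1b at rank 9346 in likeness to Ppargc1a. The flat profiles of Pparg, Ppard and Nrip1 (SD 0.159, 0.133 and 0.204) were matched by many genes.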

How the data were processed

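RNA of 12 libraries was measured, grouped by the sample labels into 6 groups of 2. Total RNA isolated with TRIZOL was freed of ribosomal RNA and made into strand-specific libraries, with paired reads of 36 bases, per the labels' protocols. The authors deposited FPKM values, 1 per entry. The build was mm10, per the submitters' processing notes, while no source used here gives aligner, quantifier or annotation. Such values carry no depth, low values showed no common whole-read step, and an exact 0 may be a failed estimate. Of 23144 genes with a RefSeq namesake, 61.5% start 1 base before it, as in zero-based files, so 1 was added to each start.

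Tests used limma 3.58.1 (eBayes with trend, R 4.3.3) on log2(FPKM + 1) for entries with at least 1 FPKM in 2 libraries of the fit, two-sided, with Benjamini-Hochberg adjusted p under 0.05. Primary libraries (8) shared 1 fit of 11294 entries with 4 residual degrees of freedom. The 4 C3H10t1/2 libraries were fitted apart (9981 entries, 2 residual degrees of freedom), and the cell sources were compared in a fit of all 12 (11601 entries). The fit was tested on simulated data with normal noise and 200 changed genes. Of log2 differences of 0.5, it recovered 12% between genotypes in beige cultures and 13% between WT beige and white cultures. In C3H10t1/2 it recovered 77.5%. Of differences of 1, it recovered 98%, 98.5% and 100%. False calls at 0.5 were 4%, 16.1% and 5.49% of calls. Differences near 0.5 between genotypes in beige cultures could thus mostly go uncalled. The simulation does not stand for beige against white, where 53.7% (WT) and 61.0% (ATF7KO-labelled) of entries were called, far more than 200 genes. Smaller differences passed there, such as 0.34 for Pparg in ATF7KO-labelled cultures.

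Alternatives were a pseudocount of 0.1, no filter, quantile normalization, totals rescaled without small RNA genes (21.8% to 29.5% of summed FPKM), a replicate block, all 12 libraries in 1 fit, and leaving out each library. Members, pathway lists and marker lists were chosen with earlier results of these data known. Named from each list were up to 3 genes called in each direction with the lowest p, and for each member the 3 genes with the most similar profile. Some items that this rule would name are not reported here.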

Additional observations from a re-analysis of the deposited data

Results flagged for a closer look

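Cox8b, a cytochrome c oxidase subunit of beige fat on the list of ERR and PGC-1 targets, had genotype effects that differed between beige and white cultures. Its level was 270 and 294 FPKM in ATF7KO-labelled beige cultures, against 156 and 183 FPKM in WT beige cultures, and 21.7 and 23.7 FPKM in ATF7KO-labelled white cultures, against 27.9 and 29.1 FPKM in WT white cultures. The difference between the effects was 1.05 on the log2 scale (SE 0.16, limma adjusted p = 0.0416). The call was lost whichever of the 8 libraries was left out, with a pseudocount of 0.1 and with no filter.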

How the results depend on the processing

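Of 656 values of members under an alternative, 594 kept direction and call, 23 lost the call, 3 gained it and 36 changed sign. Every sign change was in a difference that had not passed. The calls of Ppara, Rxra, Rxrg, Ppargc1a, Ppargc1b and Esrra between beige and white cultures held under all alternatives run.

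Replicate numbers were shared between groups. Deviations of same-numbered primary libraries correlated at -0.0865 to 0.124 and those of C3H10t1/2 at 0.0554, and the main fits used no pairing. The labels do not say whether same-numbered libraries share an origin, and with 2 libraries a group these correlations cannot decide it. With the replicate number as a block, no member's call changed (Ppara in C3H10t1/2 -0.61, limma adjusted p = 0.042), and 27 entries were called between genotypes in beige cultures (17 without the block) and 88 in C3H10t1/2 (149 without). In the fit of all 12 libraries 26 entries were called between genotypes in beige cultures, 642 in white cultures and 116 for the difference of effects, and 1 member in C3H10t1/2.

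Between genotypes in white cultures 213 entries were called, but 54 with a pseudocount of 0.1, 122 with no filter, 387 after quantile normalization and 106 without small RNA genes. For the difference of effects 20 were called with a pseudocount of 0.1, against 33. With no filter 22 entries and 0 members were called in C3H10t1/2. Leaving out 1 library gave 5 to 20 entries between genotypes in beige cultures (5 and 11 without WT beige replicates 1 and 2), 23 to 277 in white cultures (25 and 23 without ATF7KO white replicates 1 and 2, 43 without WT white replicate 2), 16 to 43 for the difference of effects (16 without WT beige replicate 1, 19 without ATF7KO white replicate 2), and 17 to 138 in C3H10t1/2 (17 and 29 without ATF7-overexpressing replicates 1 and 2). Members called ran from 0 to 2 in C3H10t1/2 and from 2 to 5 between cell sources.

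Log2 differences that changed sign after quantile normalization were Pparg beige against white in WT (-0.179), Ppargc1a between genotypes in white cultures (-0.063), Nrip1 for the difference of effects (-0.015), Pparg (0.024) and Ppard (0.016) in C3H10t1/2, and Ppara (0.036), Esrra (0.024) and Nrip1 (0.003) between cell sources. Without small RNA genes these were Pparg in WT (-0.135), Ppard beige against white in ATF7KO-labelled cultures (-0.131), Nrip1 for the difference of effects (-0.013), Pparg (0.010) and Ppard (0.033) in C3H10t1/2, and Ppara between sources (0.007). Sign changes on leaving out 1 library spanned -0.011 to 0.048 for Pparg in WT and -0.323 to 0.057 for Nrip1 in ATF7KO-labelled cultures, beige against white. Between genotypes they spanned -0.249 to 0.131 for Nrip1 in beige cultures, and in white cultures -0.022 to 0.215 for Esrra, -0.061 to 0.259 for Ppard, -0.085 to 0.140 for Ppargc1a and -0.038 to 0.157 for Rxra. For the difference of effects they spanned -0.070 to 0.253 for Esrra and -0.149 to 0.231 for Nrip1. In C3H10t1/2 they spanned -0.078 to 0.073 for Ppard, -0.079 to 0.025 for Pparg and -0.156 to 0.029 for Rxrg, and between sources -0.121 to 0.075 for Esrra, -0.023 to 0.009 for Ppara and -0.256 to 0.054 for Rxrg. The cause of these changes was not tested. Depth is unknown, and 2 libraries a group limit what can be called.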
